A study of Homo sapiens with 18 samples.

Results

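Control siRNA cells were compared 48 h and 24 h after transfection, without 4-hydroxytamoxifen (OHT). The comparison used the 5 libraries that the labels give for siCtrl cells without OHT, 2 at 24 h and 3 at 48 h, of 18 libraries in the series. The cells were U2OS-MycER, an osteosarcoma line that carries a retroviral transgene for Myc fused to the estrogen receptor, which OHT activates. All libraries share this transgene, including the controls without OHT. By the paper, cells without OHT were given ethanol as a mock treatment when they were transfected. OHT was used at 400 nM in the arms that received it. The siCtrl cells received an siRNA against Renilla luciferase, which has no target in human cells, by reverse transfection with the same reagent as siRAD21 cells. The other 13 libraries are the arms used for comparison below: siCtrl with OHT (2 libraries at 24 h and 3 at 48 h), siRAD21 without OHT and siRAD21 with OHT (2 libraries at each time in both). Total RNA was depleted of ribosomal RNA and sequenced with a kit that does not keep the strand. Values are eRPKM, exonic reads scaled to exon length and to library size, for 23399 genes. The 14993 genes with a mean of at least 1 eRPKM over the 18 libraries were tested. Both times carry the same siRNA and the same mock treatment. The comparison therefore gives the change of the transcriptome with time after plating, transfection and addition of ethanol. Against this change the effects of siRAD21 and OHT at each time are read. The labels give no date of culture or sequencing, so time and any batch that goes with it cannot be told apart.

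As background, adherent cells that grow denser use up serum growth factors and touch more neighbours. Serum and contact act through kinases that phosphorylate FOXO factors, through ERK, which drives the immediate early genes (FOS, EGR1) and their feedback inhibitors, and through YAP and TAZ. FOXO factors switch on genes of growth arrest and fasting such as SESN3 and CCNG2. Small nucleolar RNAs (snoRNAs) guide the modification of ribosomal RNA, the related scaRNAs that of spliceosomal RNAs, and nearly all of them are cut from introns of host transcripts.

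At 48 h, 829 of the 14993 genes were higher and 1036 lower than at 24 h, at an adjusted p under 0.05 and a log2 fold change past 0.5 (limma with Benjamini-Hochberg adjustment, used for every adjusted p here). These were 12.4% of all tested genes, 5.53% higher and 6.91% lower. The 5 libraries are few, and 59.9% of all tested genes had no overlap between the values of the 2 times. Of the 1865 called genes, 1856 had none. Changes were mostly small, with 188 genes higher and 120 lower past a log2 fold change of 1, and 17 higher and 7 lower past 2. The genes called higher were expressed less (median of 4.6 eRPKM over the 18 libraries) than those called lower (10.1 eRPKM) and than all tested genes (12.9 eRPKM). The split depended on scaling. With each library centred on its median, 1139 genes were higher and 658 lower, so that 36.6% of called genes were lower instead of 55.5%. The median of all genes was -0.04 on the log2 scale as deposited and 0.04 after centring.

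**Figure D1:**
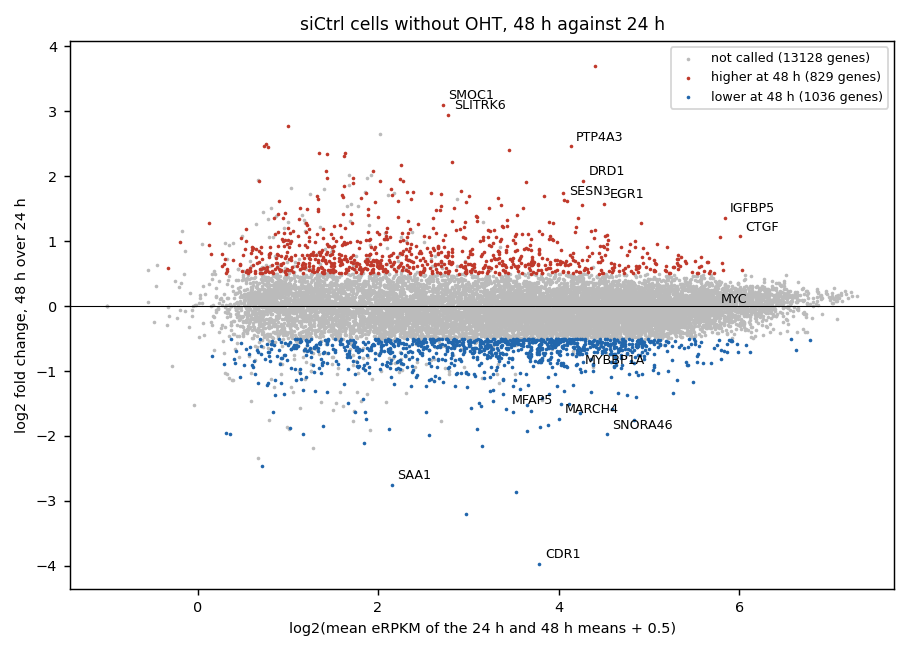
Log2 fold change from 24 h to 48 h (vertical axis) of each of the 14993 tested genes against its log2 mean level (horizontal axis, eRPKM + 0.5) in siCtrl cells without OHT. Grey points were not called, red points were higher (829 genes) and blue points lower (1036 genes) at 48 h. Named genes are those described in the text, with SMOC1 (3.10) among the largest rises and CDR1 (-3.97) the largest fall of a called gene.

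The libraries held 10941845 and 12678599 reads at 24 h and 9742318 to 10786815 at 48 h, so the 48 h libraries were shallower. Pearson's r between log2 values of libraries of 1 group was 0.987 at 24 h and 0.982 to 0.984 at 48 h. Of the 14 osteoblast lineage markers, 7 were tested and none was called. The transcription factor SP7 and the matrix genes IBSP and COL1A2 were near 0 at both times (means of 0.249, 0 and 0.0472 eRPKM at 24 h), so the osteoblast lineage is marked mainly by SPARC, COL1A1 and SPP1 (means of 67.6, 45.6 and 14.7 eRPKM at 24 h). The blood cell markers CD3E and HBB were at 0 in all 5 libraries, and of the 3 tested the lysosomal CD68 was lower (-0.86). None of 8 tested mesenchymal markers was called. Of 7 tested epithelial markers KRT14 was higher (1.18) and CDH1 and CLDN4 were lower (-0.53 and -0.52), and both of these calls were lost after median centring and without siCtrl 48 h replicate 2, CDH1 also without siCtrl 24 h replicate 2 or siCtrl 48 h replicate 1 and CLDN4 without siCtrl 24 h replicate 1. RNA of these cells is measured in bulk, so that fewer cells of a kind and less RNA per cell cannot be told apart.

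SMOC1 (chr14:70320848-70499083 in GRCh37), a secreted calcium-binding protein of the matrix that modulates BMP signalling, had 0.840 and 0.874 eRPKM at 24 h and 12.7, 9.27 and 11.8 eRPKM at 48 h (log2 fold change 3.10, standard error 0.16, adjusted p = 2.07e-08). SLITRK6 (chr13:86366925-86380818), a neuronal transmembrane protein, had 0.896 and 1.26 eRPKM at 24 h and 12.8, 11.0 and 11.1 eRPKM at 48 h (log2 fold change 2.95, standard error 0.14, adjusted p = 1.73e-08). The tyrosine phosphatase PTP4A3 had 4.19 and 5.68 eRPKM at 24 h and 29.1, 30.1 and 28.3 eRPKM at 48 h (log2 fold change 2.46, standard error 0.11, adjusted p = 1.34e-08). Every 48 h library lay far above both 24 h libraries for these 3 genes. SOSTDC1, a secreted antagonist of BMP and Wnt ligands, rose by a log2 fold change of 2.08 and the dopamine receptor DRD1 by 1.93. HAS2, which makes hyaluronan, the transcription factor SOX6 and the repulsive guidance ligand SEMA3A rose by 1.93, 1.93 and 1.91. NKD1, an inhibitor of Wnt signalling, and ROR1, a receptor for Wnt5a, rose by 1.81 and 1.77. The largest adjusted p of these 10 genes was 2.21e-06, for DRD1. By the rule for naming genes, the other 5 of the 15 largest rises are microRNA precursors with 0 to 7 reads in a 24 h library, which are described with that class.

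Of the 24 tested members of the list of CDK inhibitors and quiescence genes, 10 were higher and 0 lower (41.7% against 5.53% of all genes), and the list had a median of 0.32 on the log2 scale (-0.04 over all genes). The FOXO and growth arrest genes made up 8 of these 10, of 18 tested. SESN3, a stress-induced inhibitor of mTORC1 and a FOXO target, had 6.74 and 8.62 eRPKM at 24 h and 25.9, 24.6 and 23.6 eRPKM at 48 h (log2 fold change 1.63, standard error 0.11, adjusted p = 1.26e-07). BTG1, an antiproliferative adaptor of mRNA deadenylation, had 5.72 and 5.31 eRPKM at 24 h and 13.0, 12.7 and 13.3 eRPKM at 48 h (log2 fold change 1.17, standard error 0.06, adjusted p = 4.4e-08). PIK3IP1, an inhibitor of PI3 kinase, rose by 1.11 and CCNG2, an atypical cyclin of resting cells, by 1.07 (adjusted p = 4.6e-06 and 1.04e-06). In all 4 genes every 48 h library lay above both 24 h libraries. KLF9, BCL6, FOXO4 and FOXO1, all transcription factors, rose by 0.86, 0.83, 0.80 and 0.60. Of the 6 tested CDK inhibitors, CDKN2D (p19) and CDKN2B (p15) rose by 0.74 and 0.79. CDKN1A (p21) had 74.1 and 66.9 eRPKM at 24 h and 76.0, 78.7 and 78.7 eRPKM at 48 h and did not pass the fold threshold (0.14, adjusted p = 0.0292), and CDKN1B (p27) had 40.9 and 40.7 eRPKM at 24 h and 42.3, 45.6 and 43.3 eRPKM at 48 h (0.10, adjusted p = 0.0612). Of 32 tested p53 targets, 3 were higher (9.38% against 5.53% of all genes) and 0 lower. The 3 were TP53INP1 (1.30), ZMAT3 (0.81) and PMAIP1 (0.69), and MDM2, the feedback target, had a log2 fold change of 0.17, adjusted p = 0.00154. The libraries keep no strand, and exons of SESN3, BTG1, PIK3IP1, BCL6 and TP53INP1 overlap those of other genes on the opposite strand, so their reads cannot be told apart. In all, 74 of the 188 named genes with a position have such an overlap.

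Genes of proliferation were nearly flat over the same interval. Of 53 tested genes of DNA replication licensing and firing and 37 of the G1/S and E2F list, 0 were called in either direction, with medians of -0.09 and 0.04. Of the 53, 13 had a log2 fold change above 0, and of the 37, 21. MCM2, a subunit of the replicative helicase, had 64.0 and 61.5 eRPKM at 24 h and 60.3, 62.3 and 60.9 eRPKM at 48 h (-0.04, adjusted p = 0.46). PCNA, the sliding clamp, had 38.5 and 36.3 eRPKM at 24 h and 45.5, 49.3 and 46.7 eRPKM at 48 h (0.33, adjusted p = 0.000251), without overlap but under the fold threshold, as did E2F1 (0.33, adjusted p = 0.000533). Of 70 genes of G2/M and mitosis, 0 rose and 3 fell (4.29% against 6.91% of all genes). These were the separase ESPL1 (-0.63), the kinetochore motor CENPE (-0.53) and the phosphatase CDC25C (-0.53). After median centring, 1 of the list was called, and CENPE and CDC25C were not. CDC25C also lost the call without siCtrl 48 h replicate 3 (-0.49). MKI67, a marker of cycling cells, had 65.5 and 65.7 eRPKM at 24 h and 65.5, 55.6 and 56.1 eRPKM at 48 h, with no clear separation of the times (-0.15, adjusted p = 0.197). CCNB1, TOP2A and CCND1 had log2 fold changes of 0.06, 0.16 and 0.08, none past the threshold. Of 43 replication-dependent histone genes, 6 fell and 0 rose (14.0% against 6.91% of all genes), with a median of 0.04. HIST1H2AE had 50.1 and 47.5 eRPKM at 24 h and 23.8, 24.6 and 24.2 eRPKM at 48 h (log2 fold change -1.0, standard error 0.10, adjusted p = 3.33e-06), and the others were HIST1H2BE, HIST1H2BB, HIST1H2BG, HIST1H4K and HIST1H4J. HIST1H2BE lost the call without siCtrl 24 h replicate 2 and HIST1H4J without siCtrl 24 h replicate 1 or siCtrl 48 h replicate 2. With the trend on GC content and length removed, 4 of the list were lower.

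The value counted on MYC stayed level. The transgene holds Myc sequence, so reads of the endogenous gene and of the transgene cannot be told apart here. It had 55.2 and 51.7 eRPKM at 24 h and 54.6, 49.9 and 52.3 eRPKM at 48 h (log2 fold change -0.03, standard error 0.06, adjusted p = 0.71), with overlap between the times. The 11 tested genes of the MYC network had a median of -0.03, and 7 were below 0. Of these 11, MXD4 and MNT were called and both rose (18.2% higher against 5.53% of all genes). They encode partners of MAX that repress genes which Myc activates. MXD4 had 8.69 and 8.01 eRPKM at 24 h and 15, 14.0 and 14.6 eRPKM at 48 h (log2 fold change 0.77, standard error 0.07, adjusted p = 2.04e-06). MNT had 3.25 and 3.52 eRPKM at 24 h and 7.12, 4.50 and 5.19 eRPKM at 48 h (0.63, adjusted p = 0.00855), and lost the call without siCtrl 24 h replicate 1 or without siCtrl 48 h replicate 1. Of 58 nucleolar and Myc target genes, 6 fell and 0 rose (10.3% against 6.91%), with a median of -0.13, and -0.24 for the 39 nucleolar genes. MYBBP1A, a nucleolar protein that binds MYB, had 25.2 and 23.6 eRPKM at 24 h and 12.4, 11.1 and 13.1 eRPKM at 48 h (log2 fold change -0.97, standard error 0.07, adjusted p = 2.19e-07). RRP12, a ribosome export factor, had 23.8 and 23.0 eRPKM at 24 h and 12.8, 11.6 and 12.7 eRPKM at 48 h (log2 fold change -0.89, standard error 0.07, adjusted p = 9e-07). LYAR and NOP2, which act in ribosomal RNA processing, fell by -0.68 and -0.61 as log2 fold changes, and the nucleotide synthesis enzymes ATIC and CAD by -0.64 and -0.51. CAD lost the call after median centring (-0.42) and without siCtrl 48 h replicate 2 (-0.38). None of the 77 cytosolic ribosomal protein genes was called, and 63 of them were above 0 with a median of 0.13. Of 15 cohesin and CTCF genes, 0 were called. RAD21, the silenced gene of the other arms, had 72.2 and 69.3 eRPKM at 24 h and 93.3, 96.9 and 89.0 eRPKM at 48 h in these control cells, without overlap but under the fold threshold (log2 fold change 0.39, standard error 0.05, adjusted p = 1.99e-05).

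Of 24 tested immediate early genes, 9 were higher and 1 was lower (37.5% and 4.17% against 5.53% and 6.91% of all genes), and the median of the list was 0.43 on the log2 scale, and of 17 genes of the SRF and MRTF cofactors 0 were called (median 0.05). EGR2, a zinc finger factor, had 1.07 and 0.724 eRPKM at 24 h and 5.46, 4.39 and 4.25 eRPKM at 48 h (log2 fold change 1.90, standard error 0.19, adjusted p = 5.58e-06). FOS had 6.30 and 6.96 eRPKM at 24 h and 17.4, 17.8 and 41.4 eRPKM at 48 h (log2 fold change 1.75, standard error 0.31, adjusted p = 0.000443), and replicate 3 at 48 h stood apart at more than 2 times the other 2 libraries of its group. EGR1 had 10.6 and 10.8 eRPKM at 24 h and 34.3, 24.6 and 42.3 eRPKM at 48 h (log2 fold change 1.57, standard error 0.16, adjusted p = 5.57e-06). The 48 h libraries lay above both 24 h libraries in all 3 genes, and for FOS and EGR1 they differed among themselves more than those at 24 h. PHLDA1 had 8.86 and 9.39 eRPKM at 24 h and 32.0, 27.0 and 25.4 eRPKM at 48 h (log2 fold change 1.56, standard error 0.10, adjusted p = 1.26e-07). SPRY2 and SPRY4, which inhibit receptor tyrosine kinase signalling, rose by 1.4 and 1.41, and the nuclear receptor NR4A1 by 1.23. ZFP36, which destabilizes cytokine mRNAs, rose by 0.75 but lost the call without siCtrl 24 h replicate 2, and JUNB rose by 0.51. FOSL1, a late member of the FOS family, had 55.7 and 49.4 eRPKM at 24 h and 37.8, 39.2 and 33.2 eRPKM at 48 h and fell (-0.51, adjusted p = 0.000391). JUNB and FOSL1 complete the 10 called genes and were named after their values were seen. Of the immediate early and SRF genes together, 0 were lower without siCtrl 24 h replicate 1 or siCtrl 48 h replicate 3 and after median centring, which also put 13 genes higher in place of 9. JUN and DUSP1 had -0.14, adjusted p = 0.111 and -0.17, adjusted p = 0.26 as log2 fold changes.

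The 250 bases before the start of EGR1 are shown because the gene is a textbook target of serum response factor. Of the 20 promoters matched for the immediate early list, it alone held a match to the factor's site in these 250 bases. Bases further upstream were not searched, so a promoter without a match can hold the site there. The site is the CArG box, searched in the 250 bases before the annotated start and, since it reads alike on both strands, on both at once. It was found in 1.14% of 27305 RefSeq promoters (GRCh38.p14) and in 1 of the 20 promoters matched for the 27 immediate early genes. In the promoter at chr5:138465229-138465478 (plus strand), the 2 matches begin 105 and 83 bases before the start and stand in capitals. Among genes called higher, 1.29% of the promoters held a CArG box, among genes called lower 0.945%, and among all genes tested 1.01%.
EGR1 promoter: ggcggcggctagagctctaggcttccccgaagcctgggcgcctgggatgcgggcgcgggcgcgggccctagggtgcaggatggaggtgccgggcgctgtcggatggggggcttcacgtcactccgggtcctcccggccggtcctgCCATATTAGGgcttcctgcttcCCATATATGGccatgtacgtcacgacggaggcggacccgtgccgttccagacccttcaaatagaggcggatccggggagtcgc

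Several cytokine genes rose with time. Of 22 tested NF-kB cytokine and feedback genes, 6 were higher and 1 lower (27.3% and 4.55%), with a median of 0.06. CCL2, a monocyte chemoattractant, had 18.2 and 15.7 eRPKM at 24 h and 43.4, 45.3 and 37.7 eRPKM at 48 h (log2 fold change 1.29, standard error 0.09, adjusted p = 2.7e-07). CXCL8 (interleukin 8) had 3.54 and 4.26 eRPKM at 24 h and 10.4, 14.7 and 6.96 eRPKM at 48 h (log2 fold change 1.29, standard error 0.22, adjusted p = 0.000344), with the 48 h libraries spread over a range of more than 2 times. PTGS2, the inducible prostaglandin synthase, had 0.956 and 1.4 eRPKM at 24 h and 3.91, 4.31 and 3.61 eRPKM at 48 h (log2 fold change 1.41, standard error 0.13, adjusted p = 1.98e-06). CCL20, IER3 and TNFAIP2 rose by 0.62, 0.59 and 0.53. CCL20 lost the call without siCtrl 24 h replicate 1 and TNFAIP2 without siCtrl 24 h replicate 2. The adaptor TRAF1 had 6.65 and 6.28 eRPKM at 24 h and 2.89, 3.01 and 2.96 eRPKM at 48 h and fell (log2 fold change -1.01, standard error 0.06, adjusted p = 7.74e-08). IL6 was under the filter on low values and was not tested. The acute phase gene SAA1 (chr11:18287807-18291524), a cytokine target, went the other way, with 8.50 and 5.94 eRPKM at 24 h and 0.303, 0.738 and 0.959 eRPKM at 48 h (log2 fold change -2.75, standard error 0.26, adjusted p = 2.78e-06). Its 48 h values rest on 2, 5 and 7 reads against 63 and 51 at 24 h. Of 43 interferon-stimulated genes, 5 were higher and 1 lower (11.6% and 2.33% against 5.53% and 6.91% of all genes). OASL had 1.80 and 1.82 eRPKM at 24 h and 4.38, 4.65 and 4.76 eRPKM at 48 h (log2 fold change 1.14, standard error 0.20, adjusted p = 0.000355), and IRF7, IFIT2, XAF1 and IFI44 were called higher at 0.50 to 1.12. Without siCtrl 24 h replicate 1, 2 genes of the list were higher, and IRF7, IFIT2, XAF1 and IFI44 were no longer called. IRF7 also lost the call without siCtrl 48 h replicate 1, IFI44 without siCtrl 48 h replicate 2, and XAF1 without siCtrl 24 h replicate 2 or siCtrl 48 h replicates 1 or 3. The antigen transporter TAP2 fell (-0.51) but not without siCtrl 48 h replicate 2. IFIT1 and ISG15 had -0.02, adjusted p = 0.864 and -0.38, adjusted p = 0.00411.

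Metabolic genes moved singly rather than as lists. Of 33 tested cholesterol genes, 3 were higher and 1 lower, and 0 of the 20 enzymes of synthesis were called. The 3 rises were in targets of the sterol-sensing receptor LXR. Whether LXR targets rose as a set was not tested, since the group listed under that name leaves out MYLIP. Of the 5 tested genes listed under efflux and LXR targets, 2 were higher (40% against 5.53% of all genes). The receptor gene NR1H3 was the 1 lower. In that group 3 were below 0, with a median of -0.16. ABCA1, which loads cholesterol on lipoproteins, had 0.630 and 0.808 eRPKM at 24 h and 2.93, 3.60 and 3.44 eRPKM at 48 h (log2 fold change 1.65, standard error 0.13, adjusted p = 6.47e-07). ABCG1, a second exporter, had 3.17 and 3.29 eRPKM at 24 h and 11.5, 10.3 and 8.63 eRPKM at 48 h (log2 fold change 1.51, standard error 0.12, adjusted p = 5.7e-07). MYLIP, a ubiquitin ligase, had 10.6 and 12 eRPKM at 24 h and 16.8, 17.7 and 21.9 eRPKM at 48 h (0.70, adjusted p = 0.000694). NR1H3, which encodes LXR alpha, fell (-0.53, adjusted p = 0.000456) but was not called without siCtrl 24 h replicate 1, without siCtrl 48 h replicate 1 or after median centring. HMGCS1, an enzyme of synthesis, had a log2 fold change of 0.37, adjusted p = 9.11e-06, under the fold threshold. Among 23 glycolysis genes only the glucose transporter SLC2A3 was called, with 14.0 and 14.6 eRPKM at 24 h and 31.5, 33.5 and 28.4 eRPKM at 48 h (log2 fold change 1.09, standard error 0.07, adjusted p = 1.63e-07). Of 53 nuclear oxidative phosphorylation genes only SDHC, a subunit of succinate dehydrogenase, was called, with 9.30 and 8.88 eRPKM at 24 h and 18.3, 19.5 and 22 eRPKM at 48 h (log2 fold change 1.09, standard error 0.07, adjusted p = 1.39e-07). Of 23 hypoxia genes, SLC2A3 and the mitophagy receptor BNIP3L rose, and the peptide hormone ADM (-1.13) and STC1 (-0.70) fell. These shares were 8.7% each way, against 5.53% higher and 6.91% lower over all genes. VEGFA had -0.02, adjusted p = 0.734. Of 44 genes of the ATF4 amino acid response 3 fell (6.82%, near the 6.91% of all genes): the factor ATF5 (-0.74), CHAC1 (-0.65) and ALDH1L2 (-0.59). CHAC1 lost the call without siCtrl 24 h replicate 1 and ALDH1L2 without siCtrl 24 h replicate 2. ULK1 and WIPI1 of the autophagy genes rose by 0.71 and 0.71, of 45 lysosome and autophagy genes tested (4.44% against 5.53% of all genes). HERPUD1 was the only called gene of 20 in the unfolded protein response (0.59). Of 12 heat shock genes BAG3 and HSPA1B fell (-0.68 and -0.55), a share of 16.7% against 6.91% of all genes. HSPA1B was not called without siCtrl 48 h replicate 1. Of 22 NRF2 and metal response genes the zinc exporter SLC30A1 rose (0.55) and MT1A fell (-0.56), and MT1A lost the call without any 1 of 4 libraries. None of 15 fatty acid synthesis genes was called.

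Matrix and growth factor genes showed single large changes. CTGF, a secreted matricellular protein and target of YAP and TGF-beta, had 42.9 and 38.8 eRPKM at 24 h and 86.0, 84.8 and 89.6 eRPKM at 48 h (log2 fold change 1.08, standard error 0.05, adjusted p = 1.01e-08), whereas its relative CYR61 had 57.2 and 52.4 eRPKM at 24 h and 53.2, 54.5 and 65.9 eRPKM at 48 h (0.07, adjusted p = 0.468). Of 28 YAP/TAZ genes, 4 were higher and 2 lower (14.3% and 7.14% against 5.53% and 6.91% of all genes). Those higher included the coactivator WWTR1 (TAZ, 0.62). Those lower were WWC1 (-0.72) and FJX1 (-0.55), FJX1 not without siCtrl 24 h replicate 1. The others higher were VGLL4 (0.64) and PTPN14 (0.53), and PTPN14 lost the call without siCtrl 24 h replicate 1 or siCtrl 48 h replicate 1. Of 23 genes of the TGF-beta and BMP response, 5 were higher and 0 lower (21.7%), with a median of 0.00: the ligands TGFB1 and INHBA (0.82 and 0.69), the latent TGF-beta binding protein LTBP1 (0.88), and the inhibitors of SMAD signalling PMEPA1 and SKIL (0.60 and 0.54). SKIL lost the call without siCtrl 24 h replicate 1 or siCtrl 48 h replicate 1. Of 60 matrix genes, 4 were higher and 2 lower (6.67% and 3.33%), near the shares over all genes. The matrix protease MMP3 had 35.6 and 35.5 eRPKM at 24 h and 10.5, 16.5 and 14.9 eRPKM at 48 h and fell (log2 fold change -1.34, standard error 0.13, adjusted p = 3.46e-06), as did MATN2 (-0.53), which lost the call after median centring (-0.44) and with the trend on GC content and length removed (-0.48), among other settings. The laminin chain LAMB1, the collagen COL11A1, the proteoglycan LUM and the protease inhibitor SERPINE2 rose by 0.91, 0.90, 1.19 and 0.63. COL1A1 had 48.9 and 42.2 eRPKM at 24 h and 59.1, 28.1 and 34.1 eRPKM at 48 h, with the 48 h libraries on both sides of those at 24 h (-0.24, adjusted p = 0.586). Without siCtrl 24 h replicate 2 the count of matrix genes higher was 8, without siCtrl 48 h replicate 2 it was 7, and after median centring 11. IGFBP5, a secreted binding protein of insulin-like growth factors, was the only called gene of 7 tested in its list, with 30.1 and 33.0 eRPKM at 24 h and 91.5, 75.6 and 78.7 eRPKM at 48 h (log2 fold change 1.36, standard error 0.12, adjusted p = 1.24e-06). Markers of fibroblasts, PDGFRA (1.04), LUM (1.19) and FAP (0.93), rose of 6 tested, and the summed level of that marker list was 55.6 to 58.9 eRPKM at 24 h and 72.6 to 80.4 eRPKM at 48 h, while the defining matrix genes DCN and DPT stayed near 0 (means of 0.104 and 0.191 eRPKM at 48 h). The part of such cells in these results was not tested.

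Of 18 tested clock genes, 7 were higher and 0 lower (38.9% against 5.53%), with a median of 0.34. The repressors PER1, PER2 and PER3 rose by 0.63, 0.61 and 0.53, BHLHE40 and BHLHE41, which repress E-box genes, by 0.52 and 0.73, and the receptors RORA and RORB by 0.72 and 0.71. PER2 had 4.53 and 4.73 eRPKM at 24 h and 8.06, 7.15 and 6.85 eRPKM at 48 h (adjusted p = 0.000969). PER1 had 5.75 and 6.10 eRPKM at 24 h and 11.9, 8.20 and 8.56 eRPKM at 48 h (adjusted p = 0.00756). Without siCtrl 24 h replicate 1, 3 of the list were higher, and PER1, PER3, RORA and RORB were not called. PER1 also lost the call without siCtrl 48 h replicate 1, PER3 without siCtrl 48 h replicate 3, and BHLHE40 without siCtrl 24 h replicate 2 or siCtrl 48 h replicates 1 or 2. The activators CLOCK and ARNTL had 0.03, adjusted p = 0.693 and 0.17, adjusted p = 0.118, and NR1D1, a main target of the clock, had 7.54 and 7.13 eRPKM at 24 h and 8.88, 6.01 and 7.95 eRPKM at 48 h (0.03, adjusted p = 0.868). With 2 times 24 h apart, no phase can be read.

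Feedback genes of Wnt signalling and receptors of axon guidance were looked at after their values were seen, because NKD1, ROR1 and SEMA3A are among the largest rises, so that the counts include the genes that prompted the lists and are a description only. Of 11 tested Wnt genes, 6 were higher and 0 lower (54.5% higher against 5.53% of all genes), and at a mean of at least 5 eRPKM 4 were tested and 1 was higher. AXIN2, a scaffold of the beta-catenin destruction complex and a common readout of the pathway, had 6.33 and 7.27 eRPKM at 24 h and 16.6, 16.8 and 11.7 eRPKM at 48 h (log2 fold change 1.08, standard error 0.15, adjusted p = 8.91e-05). RNF43, a ubiquitin ligase that removes Wnt receptors, had 1.86 and 2.11 eRPKM at 24 h and 8.32, 6.51 and 7.21 eRPKM at 48 h (log2 fold change 1.65, standard error 0.13, adjusted p = 6.08e-07), and NOTUM, which inactivates Wnt ligands, rose by 0.65. LEF1 and ZNRF3 had 0.25, adjusted p = 0.00651 and -0.22, adjusted p = 0.0565 and were not called. Of 15 tested guidance genes, 5 were higher and 0 lower (33.3% higher), among them the ephrin receptor EPHA4 with 4.43 and 4.95 eRPKM at 24 h and 14.8, 14.0 and 15.7 eRPKM at 48 h (log2 fold change 1.56, standard error 0.10, adjusted p = 9.86e-08).

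**Figure D2:**
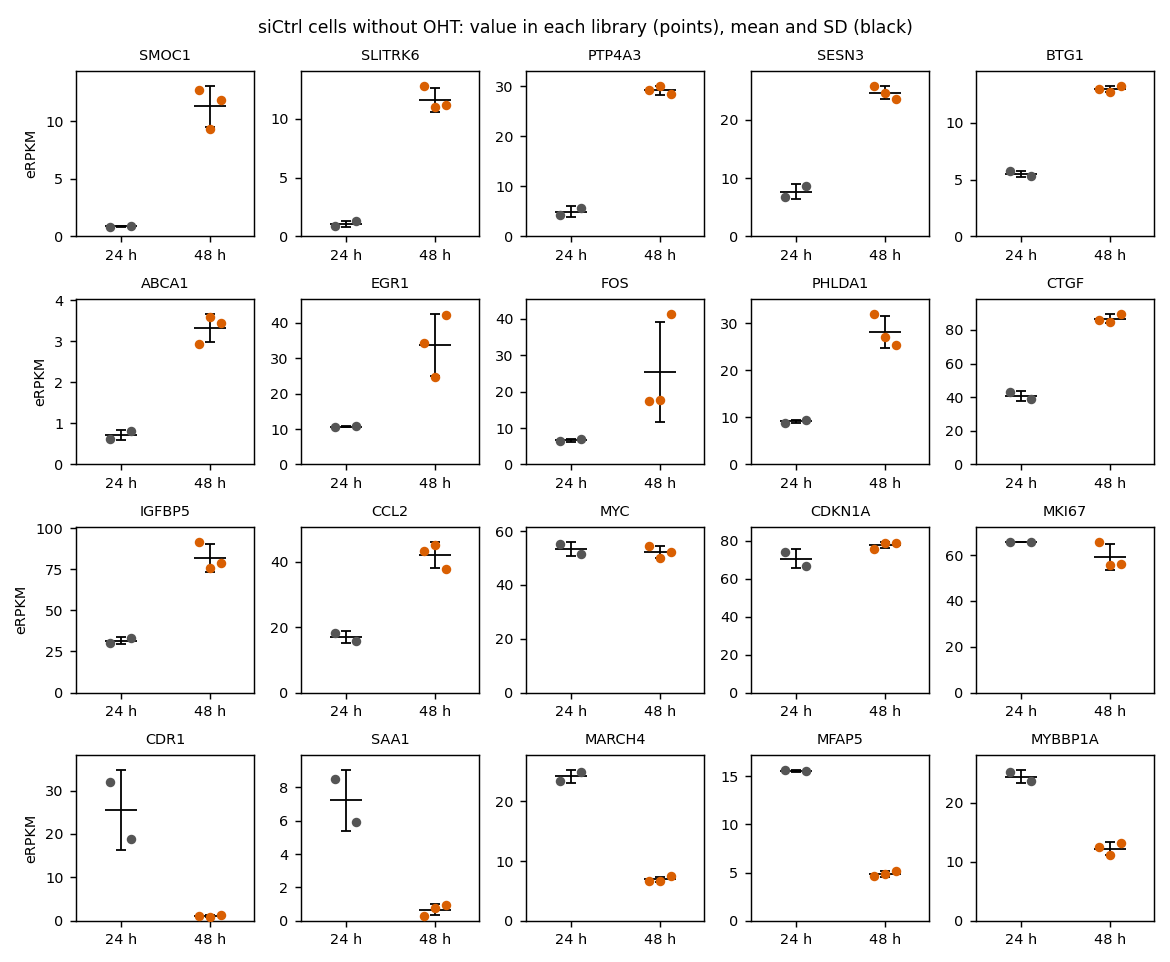
Value in eRPKM (vertical axis, from 0) of 20 genes in each siCtrl library without OHT at 24 h (grey, n = 2) and 48 h (orange, n = 3), with the mean and SD in black. The times are separate in the panels other than those of MYC and MKI67, and the 3 libraries at 48 h are spread widest for FOS and EGR1.

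Falls of this size were rare among protein-coding genes. MARCH4, a membrane-bound ubiquitin ligase, had 23.4 and 24.9 eRPKM at 24 h and 6.69, 6.64 and 7.42 eRPKM at 48 h (log2 fold change -1.74, standard error 0.12, adjusted p = 1.43e-07). MFAP5, a microfibril-associated glycoprotein, had 15.6 and 15.5 eRPKM at 24 h and 4.59, 4.82 and 5.15 eRPKM at 48 h (log2 fold change -1.58, standard error 0.06, adjusted p = 6.63e-09). The 3 libraries at 48 h lay close together and far below both 24 h libraries in both genes. With OHT the log2 fold changes were -0.92 and -1.72.

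The largest fall of a called gene was at CDR1. It had 32.0 and 18.9 eRPKM at 24 h and 1.11, 0.846 and 1.43 eRPKM at 48 h, which rest on 455 and 312 reads at 24 h and 14, 11 and 20 reads at 48 h (log2 fold change -3.97, standard error 0.23, adjusted p = 6.94e-08). The 2 libraries at 24 h differed from each other, but every 48 h library was far below the lower of the 2. The locus lies on chromosome X (chrX:139865743-139866531, GRCh37, annotated on the minus strand), and the long noncoding RNA LINC00632 overlaps it on the plus strand. The values imply a counted length of 1299 bases, longer than this interval. From the plus strand a circular RNA with many sites for miR-7 is known to be made. The libraries keep no strand, so reads of CDR1 and of that plus strand RNA cannot be told apart. LINC00632 itself had 2.75 and 2.14 eRPKM at 24 h and 2.50, 1.5 and 1.59 eRPKM at 48 h and was not called (-0.33, adjusted p = 0.139). The precursor MIR7-1 had 24.9 and 27.2 eRPKM at 24 h and 26.1, 23.6 and 35.4 eRPKM at 48 h (0.10, adjusted p = 0.764), and OIP5-AS1, a long noncoding RNA known to speed the decay of miR-7, had 50.9 and 49.0 eRPKM at 24 h and 45.4, 49.9 and 46.2 eRPKM at 48 h (-0.08, adjusted p = 0.262). The other 3 arms gave log2 fold changes of -3.88 with OHT, -3.48 with siRAD21 and -3.71 with both, all called.

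The sequence of miR-7 with its seed (bases 2 to 8) in capitals, from RefSeq, and 200 bases of the plus strand of the CDR1 locus (chrX:139865906-139866105, GRCh37) with the complement of that seed in capitals are shown, since this repeat sets the locus apart from other transcripts. The complement, GTCTTCC, was found 38 times on the plus strand of the 789 bases and 0 times on the minus strand, and 11 times in the stretch shown. In the last 789 bases of 35561 other GENCODE transcripts, 6.14% held it at least once and none more than 9 times.
hsa-miR-7-5p: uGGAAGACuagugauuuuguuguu
CDR1 locus, plus strand: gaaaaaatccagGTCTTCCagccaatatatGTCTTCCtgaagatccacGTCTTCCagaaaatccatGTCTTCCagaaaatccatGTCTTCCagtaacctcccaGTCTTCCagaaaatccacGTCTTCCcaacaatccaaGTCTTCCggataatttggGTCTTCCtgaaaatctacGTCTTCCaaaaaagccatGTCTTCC

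Many small nucleolar and Cajal body RNAs were lower at 48 h. These classes were taken by gene symbol after their values were seen. Of 83 tested H/ACA snoRNAs (SNORA), 36 fell and 3 rose (43.4% and 3.61%), and the class median was -0.56. Of 138 C/D snoRNAs (SNORD), 30 fell and 2 rose (21.7% and 1.45%), with a median of -0.36. Of 23 scaRNAs 10 fell and 1 rose (43.5% and 4.35%), with a median of -0.46. Over all genes 6.91% fell and 5.53% rose. Without siCtrl 24 h replicate 1 the count of SNORD genes lower was 16, and with the trend on GC content and length removed it was 17. The share of all reads on SNORA genes was 0.0642 to 0.0683% at 24 h and 0.0479 to 0.0510% at 48 h, and on SNORD genes 0.0539 to 0.0559% and 0.0424 to 0.0445%, without overlap, while that on SCARNA genes overlapped (0.0285 to 0.0318% and 0.0281 to 0.0300%). SNORA46 had 37.9 and 35.1 eRPKM at 24 h and 8.36, 8.14 and 10.3 eRPKM at 48 h (log2 fold change -1.98, standard error 0.18, adjusted p = 2.05e-06). SNORA74B had 47.9 and 39.0 eRPKM at 24 h and 17.1, 11.3 and 10.00 eRPKM at 48 h (log2 fold change -1.76, standard error 0.24, adjusted p = 5.71e-05). SCARNA14 had 19.3 and 19.6 eRPKM at 24 h and 3.75, 3.65 and 0.677 eRPKM at 48 h (log2 fold change -2.86, standard error 0.42, adjusted p = 0.000112), and SCARNA8 and SNORD8 fell by -1.84 and -1.86 as log2 fold changes. These values rest on 22 to 107 reads per library for SNORA74B and on 1 to 60 for the other 4. Another 7 of the 15 largest falls were SNORD9, SCARNA18, SNORD116-11, SNORA14A and 3 microRNA precursors. SNORD9 lost the call without siCtrl 24 h replicate 1 or 2 or siCtrl 48 h replicate 3, and so did SNORD116-11.

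The host transcripts of the 5 RNAs shown were not called. CNOT1, the host of SNORA46, had 30.2 and 32.0 eRPKM at 24 h and 37.5, 37.7 and 37.1 eRPKM at 48 h (0.27, adjusted p = 0.000233), ATP6V0E1, the host of SNORA74B, had a log2 fold change of -0.05, adjusted p = 0.63, TIPIN, that of SCARNA14, of -0.22, adjusted p = 0.0237, and HAUS6, that of SCARNA8, of -0.28, adjusted p = 0.00189. SNORD8 overlaps an annotated exon of its host CHD8 (0.03, adjusted p = 0.645), so their reads are shared in part. Of 17 transcripts listed as snoRNA hosts, 1 fell, SNHG4 (-0.68, adjusted p = 6.19e-07). This share of 5.88% was near the 6.91% of all genes. In the host list 15 were below 0 and 2 above 0, while 43.8% of all tested genes were above 0. The proteins of the H/ACA particle were not called: DKC1, the pseudouridine synthase, had -0.11, adjusted p = 0.152, NHP2 -0.09, adjusted p = 0.352, GAR1 -0.30, adjusted p = 0.104 and NOP10 0.09, adjusted p = 0.223, and the C/D methyltransferase FBL had -0.23, adjusted p = 0.00635.

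The sequences of the 5 small RNAs are given from GRCh37, since they show which of the families the falling RNAs belong to. In the H/ACA type, capitals mark the hinge box ANANNA (searched within 15 bases of the middle on the RNA strand) and the ACA in the last 8 bases. In the C/D type they mark TGATGA in the first 25 bases and CTGA in the last 20. An ACA was found there in 81.8% of 88 annotated SNORA genes and 3.90% of 206 SNORD genes, and TGATGA in 67.0% of the SNORD genes and 0 of the SNORA genes. SNORA74B had no match to the hinge box in its window. SCARNA14 lies at chr15:66639545-66639680 (minus strand), SNORA46 at chr16:58582403-58582537 (minus), SCARNA8 at chr9:19063654-19063784 (minus), SNORA74B at chr5:172447731-172447931 (plus) and SNORD8 at chr14:21865451-21865560 (minus).
SCARNA14: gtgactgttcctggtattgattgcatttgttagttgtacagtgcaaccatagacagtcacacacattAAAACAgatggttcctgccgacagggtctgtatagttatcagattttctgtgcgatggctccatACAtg
SNORA46: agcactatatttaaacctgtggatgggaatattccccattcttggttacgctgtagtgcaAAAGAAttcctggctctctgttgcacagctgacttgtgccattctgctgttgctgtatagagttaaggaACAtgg
SCARNA8: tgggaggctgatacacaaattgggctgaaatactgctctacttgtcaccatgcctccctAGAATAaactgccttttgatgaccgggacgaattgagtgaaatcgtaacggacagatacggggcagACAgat
SNORA74B: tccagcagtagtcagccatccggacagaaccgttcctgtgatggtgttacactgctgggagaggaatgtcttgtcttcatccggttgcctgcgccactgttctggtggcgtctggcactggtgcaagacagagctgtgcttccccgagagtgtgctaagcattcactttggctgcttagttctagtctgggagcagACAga
SNORD8: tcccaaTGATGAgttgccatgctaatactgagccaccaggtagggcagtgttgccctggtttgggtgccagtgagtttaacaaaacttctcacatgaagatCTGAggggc

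MicroRNA precursors moved in both directions with few reads. Of 401 tested, 26 were higher and 25 lower, with a median of -0.05. These shares of 6.48% and 6.23% were near the 5.53% and 6.91% of all genes. The counts were 14 and 13 without siCtrl 24 h replicate 1. Without siCtrl 24 h replicate 2, 14 were lower, and without siCtrl 48 h replicate 1, 16 were higher. These reads lie on precursor intervals and do not measure mature microRNAs. MIR186, in an intron of ZRANB2, had 1.06 and 6.42 eRPKM at 24 h and 15.5, 20.9 and 15.1 eRPKM at 48 h from 1 to 18 reads (log2 fold change 2.41, standard error 0.42, adjusted p = 0.000403), while ZRANB2 had -0.15, adjusted p = 0.00792. MIR5586 (3.70), MIR3125 (2.22), MIR5194 (1.76) and MIR5582 (-3.20) lost the call without siCtrl 24 h replicate 1, and MIR4729 (2.18) without siCtrl 24 h replicate 2. MIR767 (-2.10) kept it without any single library, and MIR3685 (-1.99, adjusted p = 0.042) lost it under 13 alternatives. The vault RNA VTRNA1-1 had 27.0 and 20.1 eRPKM at 24 h and 10.5, 6.12 and 7.57 eRPKM at 48 h (log2 fold change -1.51, standard error 0.31, adjusted p = 0.00135). Of the nuclear long noncoding RNAs, NEAT1, the scaffold of paraspeckles, had 7.91 and 8.93 eRPKM at 24 h and 15.4, 14.3 and 18.1 eRPKM at 48 h (log2 fold change 0.88, standard error 0.09, adjusted p = 9.3e-06), MIAT rose by 0.75, and MALAT1 had 0.42, adjusted p = 2.21e-06. Zinc finger genes named ZNF were also looked at after their values were seen. Of 469 tested, 75 fell and 9 rose (16% and 1.92% against 6.91% and 5.53% of all genes). Their median was -0.23, and after median centring 49 fell and 12 rose.

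**Figure D3:**
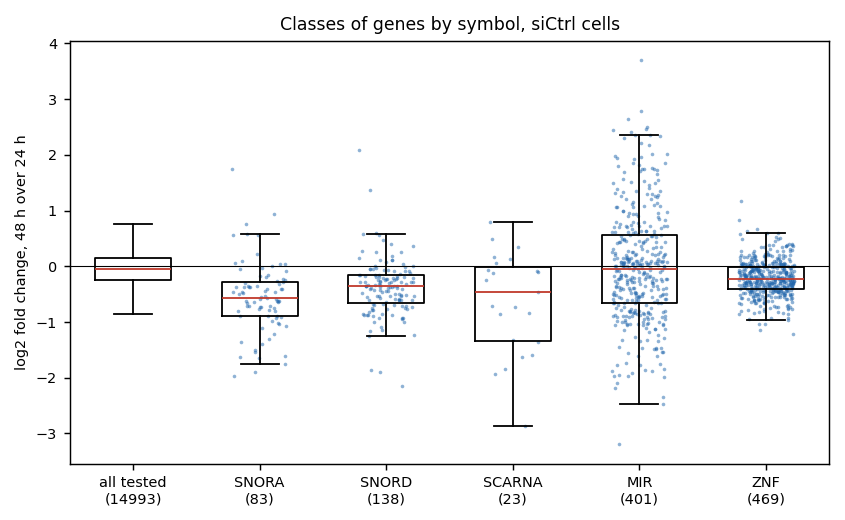
Log2 fold change from 24 h to 48 h (vertical axis) by class of gene symbol, with the number of tested genes in brackets. Boxes give the quartiles with the median in red, whiskers reach 1.5 times the box height at most, and points are single genes (not drawn for all tested genes). The medians of SNORA (-0.56), SNORD (-0.36) and SCARNA (-0.46) lie under that of all genes (-0.04), and MIR genes are spread most widely.

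The lists are set side by side with all tested genes in the plot of list shares.

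The level and make-up of a transcript moved with its change. The share of genes called lower was 3.19% in the fifth of genes with the lowest GC content and 9.34% in the fifth with the highest, and 10.8% in the fifth with the shortest exon length (under 1742 bases) and 3.40% in the longest. The share called higher was 11.5% in the fifth with the lowest mean level (1.00 to 3.41 eRPKM) and 1.20% in the highest. With the trend on GC content and length removed from each library, 886 genes were higher and 764 lower. The part of GC content, length and depth in any single result was not tested beyond this. Duplicate removal leaves at most 1 read per start and strand, which limits values to 158 to 205 eRPKM in these libraries, so that differences between highly expressed genes such as ACTB (121 and 108 eRPKM at 24 h and 137, 135 and 131 eRPKM at 48 h) and GAPDH (140.2 and 123 eRPKM at 24 h and 149, 144 and 137 eRPKM at 48 h) are compressed.

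The same interval was measured in 3 other arms that share no library with these 5, though all arms share the estimate of spread of the fit. The 48 h libraries were shallower in these arms too. Median depths at 24 h and 48 h were 11892253 and 9858415 reads with OHT, 12463453 and 10557330 with siRAD21, and 11344226 and 9736347 with both. Genes shared between arms therefore do not set time apart from depth or from a batch that goes with time. With OHT, 1576 genes were called (10.5% of all genes), with siRAD21 3448 (23.0%) and with siRAD21 and OHT 2593 (17.3%). The 2 siRAD21 OHT libraries at 48 h differed by no more than sampling noise (mean chi-square of 0.979 per gene), and with their mean as 1 library the count of that arm was 2355. The 2 siRAD21 libraries at 24 h were also near that noise (1.044) and were not averaged. Pairs of siCtrl libraries without OHT had 2.34 at 24 h and 2.688 to 3.639 at 48 h. Of the 829 genes higher in siCtrl cells, 388 were also higher with OHT, which is 46.8% of the first list and 60.8% of the second, and 4 were lower. With siRAD21, 460 were also higher (55.5% and 36.4%) and 27 lower, and with both 311 (37.5% and 35.1%) and 51 lower. Of the 1036 genes lower in siCtrl cells, 482 were also lower with OHT (46.5% and 51.4%), 617 with siRAD21 (59.6% and 28.3%) and 465 with both (44.9% and 27.2%). In all 4 arms 202 genes rose and 253 fell. BTG1, CTGF, SPRY2, EPHA4 and ABCG1 were among those that rose in every arm, with log2 fold changes of 1.23, 1.46, 1.03, 1.05 and 0.82 with OHT and 1.26, 1.11, 1.49, 2.35 and 1.63 with siRAD21. CDR1, SNORA46, SNORA74B, SCARNA14 and SAA1 fell in every arm. In contrast, 188 of the genes higher and 224 of those lower in siCtrl cells were called in no other arm, which does not show that they differed between arms.

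Whether the change with time differed between arms was tested as an interaction. The interaction with OHT was called for 266 genes (1.77% of all genes), and for 130 without siCtrl 24 h replicate 1 and 114 without siCtrl OHT 24 h replicate 1. The interaction with siRAD21 was called for 1606 genes (10.7%). The siCtrl libraries enter both the change and its interaction, so an interaction of genes chosen for a large change is not independent of that choice. SMOC1 had 0.725 and 0.643 eRPKM at 24 h and 1.36 and 0.901 eRPKM at 48 h with siRAD21, so that both times lay near the low level of siCtrl cells at 24 h, and the interaction was -2.65, adjusted p = 5.21e-06. SEMA3A fell with siRAD21 (-0.76) and rose in siCtrl cells (interaction -2.67, adjusted p = 7.19e-07). IGFBP5 did likewise, with -1.36 against 1.36 (interaction -2.72, adjusted p = 5.17e-07). With OHT, the rises of SMOC1, SOX6 and NKD1 were smaller (interaction -1.11, -1.22 and -1.18), and MXD4, which rose in siCtrl cells, had -0.00 with OHT (interaction -0.77, adjusted p = 0.00138). The falls of CDR1 and SNORA46 had interactions of 0.09, adjusted p = 0.918 and -0.17, adjusted p = 0.766 with OHT, which did not pass the thresholds.

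**Figure D4:**
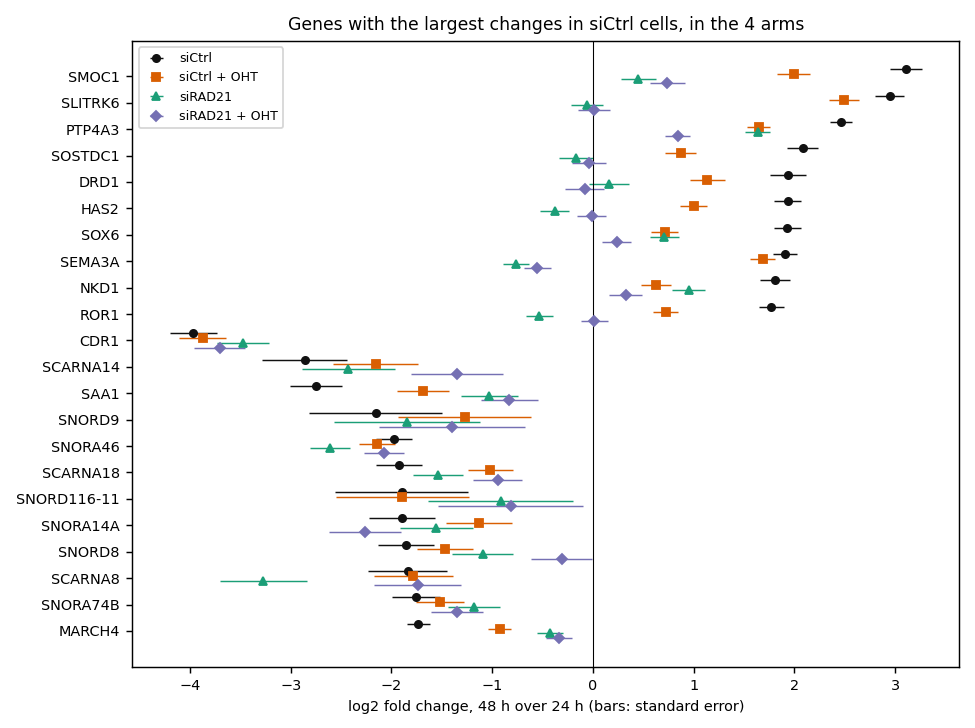
Log2 fold change from 24 h to 48 h (horizontal axis, with the standard error as bars) of the genes with the largest rises and falls in siCtrl cells, microRNA precursors left out, in the 4 arms. SLITRK6, SOSTDC1, SEMA3A, HAS2 and ROR1 lie below 0 with siRAD21 (green), while CDR1 lies between -3.97 and -3.48 in every arm.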

How the data were processed

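The authors sequenced 50-base reads of ribosomal RNA-depleted RNA of U2OS-MycER cells, aligned them to hg19 with TopHat2 2.0.8, counted exonic reads with featureCounts 1.4.5 after removal of duplicates, and deposited eRPKM (RPKM on exons). The study states 2 biological replicates, while the labels hold 3 libraries for siCtrl at 48 h. Whole reads were recovered from the deposited RPKM values for 21261 genes (tolerance of 0.02), which gave the depths.

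Values were taken as log2(eRPKM + 0.5), so fold changes of low genes are understated, and genes with a mean of at least 1 eRPKM over the 18 libraries were tested with limma 3.58.1 (R 4.3.3), 1 mean per group, a variance trend and Benjamini-Hochberg adjustment over all 14993 genes. Calls needed an adjusted p under 0.05 and a log2 fold change past 0.5. Labels do not say that replicates came from separate cultures, so p-values measure a spread between libraries. That spread was pooled over the groups of all 18 libraries and is not that of the siCtrl libraries alone. Mean chi-square per gene between libraries of a group was 0.979 to 4.239 over all groups and 2.34 to 3.639 in siCtrl cells without OHT. With only the 2 siCtrl groups without OHT fitted, 1849 genes were called. Named genes were the 15 largest rises and falls with at least 5 eRPKM in a group and no overlap, up to 8 called members per list, a set of common reference genes, and the 5 largest interactions each way. Members and lists were chosen with earlier results of these data known, and other genes given with values (further list members, host transcripts, partners, markers and gene families) lie outside this rule and were chosen after values were seen. Alternatives changed pseudocount, filter, scaling, model and libraries, and 3 were chosen after seeing the data (duplicate removal undone, transcripts of at least 250 bases, the siRAD21 OHT 48 h libraries averaged). Tested on simulated data for siCtrl 48 h against 24 h with 14971 genes, the fit recovered 31 of 50 genes changed by a log2 fold change of 0.75, 40 of 50 at 1, 48 of 50 at 1.5 and 49 of 50 at 2, and called 11 unchanged genes. GC content was matched for 97.1% of tested genes. Promoters and miR-7 come from RefSeq, other positions from GENCODE on GRCh37. Some of the named genes are not reported here.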

Additional observations from a re-analysis of the deposited data

Results flagged for a closer look

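The change from 24 h to 48 h differed between arms for these named genes, by an interaction term in the limma fit with an adjusted p under 0.05 (Benjamini-Hochberg) and a log2 difference past 0.5. Values are log2 interactions, the change in the other arm minus that in siCtrl cells without OHT. The siCtrl libraries enter both the interaction and the choice of the genes with the largest changes.

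Among genes with the largest changes in siCtrl cells, the interaction with OHT was below 0 for SMOC1 (-1.11), PTP4A3 (-0.82), SOSTDC1 (-1.21), HAS2 (-0.93), SOX6 (-1.22), NKD1 (-1.18) and ROR1 (-1.05) and above 0 for MARCH4 (0.81). With siRAD21 it was below 0 for SLITRK6 (-3.00), SMOC1 (-2.65), PTP4A3 (-0.83), SOSTDC1 (-2.25), DRD1 (-1.77), HAS2 (-2.31), SOX6 (-1.22), SEMA3A (-2.67), NKD1 (-0.86) and ROR1 (-2.31) and above 0 for MFAP5 (2.10), SAA1 (1.72) and MARCH4 (1.31).

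For the other genes, the interaction with OHT was above 0 for KRT34 (1.35), TRAF1 (1.32), SPX (1.22) and CHRNA9 (1.17) and below 0 for ADGRL3 (-1.47), KRT14 (-1.45), PLXDC2 (-1.39), GUCY1A2 (-1.31), MXD4 (-0.77) and FN1 (-0.68). With siRAD21 it was above 0 for MFAP5 (2.10), KLRC2 (1.86), IFIT2 (1.83), MDM2 (0.63) and TXNIP (0.90) and below 0 for KRT14 (-3.27), CXCL14 (-3.23), IGFBP5 (-2.72), RAD21 (-1.08), CCNE1 (-0.51), CCNE2 (-1.27), E2F1 (-1.02), MCM2 (-0.79), MCM5 (-0.56), ASNS (-0.999) and CCL2 (-1.39).

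Few reads lie behind the microRNA precursors, which had interactions of MIR3143 (1.06) and MIR641 (-1.92) with OHT and MIR3140 (4.36), MIR4307 (1.90) and MIR921 (-2.80) with siRAD21.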

How the results depend on the processing

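The count of genes called at 48 h against 24 h in siCtrl cells was within 1.5 times the main count of 1865 under the other scalings, pseudocounts, models and libraries. No named gene that was called reversed its direction, which does not cover named genes that were not called. With a mean of at least 5 eRPKM the counts were 1152 in all, 394 higher, 947 with OHT and 1654 with siRAD21 and OHT, since fewer genes were tested. With no fold change threshold they were 6774, 2698 higher and 4076 lower, 6207 with OHT, 8067 with siRAD21, 7057 with both, and 625 and 3236 for the interactions with OHT and siRAD21. At a threshold of 1 they were 308, 188 higher and 120 lower, 207 with OHT, 729 with siRAD21, 497 with both, and 50 and 347 for the interactions. Median centring gave 658 lower, and the cause was not tested. The interaction with OHT was called for 96 genes when only its groups were fitted, and for 114 to 296 genes with single libraries left out. The call in siCtrl cells covered 1613 (without siCtrl 24 h replicate 1) to 2049 genes (without siCtrl 24 h replicate 2). A replicate block gave 1968 genes in siCtrl cells, 1686 with OHT, 3471 with siRAD21, 2629 with both, and 295 and 1574 for the interactions. Deviations of libraries with the same number correlated at -0.071 and -0.0638. The 2 libraries at 24 h deviate equally and oppositely from their mean, so these values cannot decide whether the numbers pair the libraries. Of the 144 named genes called, all 144 kept their direction under every alternative and 39 lost the call under at least 1 other than the thresholds.

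With 2 libraries at 24 h, either one weighs on every call. Depths of 9742318 to 12678599 reads leave small RNAs with few reads, and duplicate removal compresses high values. The labels give no batch, so that time and batch cannot be told apart.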
